A study of Homo sapiens with 4 samples.

Results

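The genes described here are a standard list of 41 transcripts of DNA replication and S phase, taken by gene name from the deposited count table. All 41 names were found once each among 60544 listed genes. All 41 were among the 16802 genes that passed the low-count filter. The samples were PC3 cells, a human prostate carcinoma line grown in RPMI-1640 with fetal bovine serum, and poly(A) RNA was sequenced as paired reads of 150 bp. The control arm carried the label shNC and the METTL3 knockdown arm the label sh812, with 2 libraries each, and no further genotype or treatment was given for either arm. The knockdown arm rests on 1 label, so METTL3 loss and any other effect of the material labelled sh812 cannot be told apart. Nothing in the labels says that the libraries of an arm came from separate cultures, so the p-values measure only the spread between these libraries, which may be technical.

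METTL3 is the catalytic subunit of the enzyme that writes N6-methyladenosine on messenger RNA. DNA replication begins when the MCM helicase is loaded onto origins in G1 and is switched on in S phase by CDC45 and the GINS complex. Primase and polymerase alpha then start each strand, the PCNA clamp holds the main polymerases on the template, and histone chaperones rebuild chromatin behind the fork. Most of these genes are transcribed together at the boundary of G1 and S by E2F transcription factors, and their summed RNA is widely used to mark cycling cells. In bulk RNA, more cells in S phase and more of these transcripts per cell cannot be told apart.

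Libraries held from 31450648 to 37041330 gene counts, of which the 41 genes took between 0.375% and 0.398%. METTL3 itself had 1682 and 1379 counts in shNC against 269 and 313 in sh812, which the quasi-likelihood test of edgeR put at -2.42 on the log2 scale (SE 0.11, Benjamini-Hochberg adjusted p = 5.54e-14). The 8 markers of this epithelial line summed to 1973 and 2146 CPM in shNC and to 1998 and 2082 CPM in sh812 (counts scaled to a common library size with TMM factors). Of these 8, KRT18, EPCAM and CDH1 were called higher, at log2 fold changes of 0.30, 0.45 and 0.57, and EGFR was called lower at -0.26, while KRT8, KRT19, VIM and CD44 were not called. The part of the marker changes in the results was not tested. Of the markers of androgen-driven prostate cells, KLK2 and KLK3 had 0 counts in every library. The 5 leukocyte markers summed to at most 0.87 CPM in any library, with CD3E at 0. The 6 fibroblast markers summed to 54.8 and 57.1 CPM in shNC and to 48.5 and 55.4 CPM in sh812, with 1 called higher and 1 called lower. Of the 3 endothelial markers, VWF and CDH5 had 0 to 6 counts, while PECAM1 was called higher.

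The genes of the list were higher in sh812 more often than lower, and by small amounts. Of the 41 genes, 8 rose at an adjusted p under 0.05 in edgeR, namely UNG, HELLS, MCM6, FEN1, NASP, PRIM1, PCNA and MCM4. None fell in edgeR, where 2 were lower at an unadjusted p under 0.05, and DESeq2 and limma-voom also called 0 lower. DESeq2 called 7 of the 8 genes higher, all but PRIM1, and 4.76% of all genes tested. With limma-voom, all 8 were called higher, as were 5.81% of all genes tested. The 8 rises ran from 14.2% to 38.9%. Among all 16802 genes tested, 5.43% were called higher and 5.42% lower. Among the 8294 genes within the same range of mean CPM as the list, 8.31% were called higher and 7.93% lower.

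On the log2 scale the 41 genes had a median change of 0.12, against -0.0056 over all genes tested, and of 0.064 once a trend with transcript length was removed. Of the 41, 31 were fitted above 0, as were 49% of all genes tested. Both sh812 libraries lay above both shNC libraries in 22 genes and below them in 3, CCNE2, BRIP1 and E2F8. Over all genes tested, 26.2% had both sh812 libraries above and 27.4% had both below. Within groups, the median log2 difference of the 41 genes was 0.013 between the shNC libraries, as replicate 2 minus replicate 1, and -0.051 between the sh812 libraries. The median over the list was 0.064 without sh812 replicate 1 and from 0.11 to 0.12 without any other single library.

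**Figure D1:**
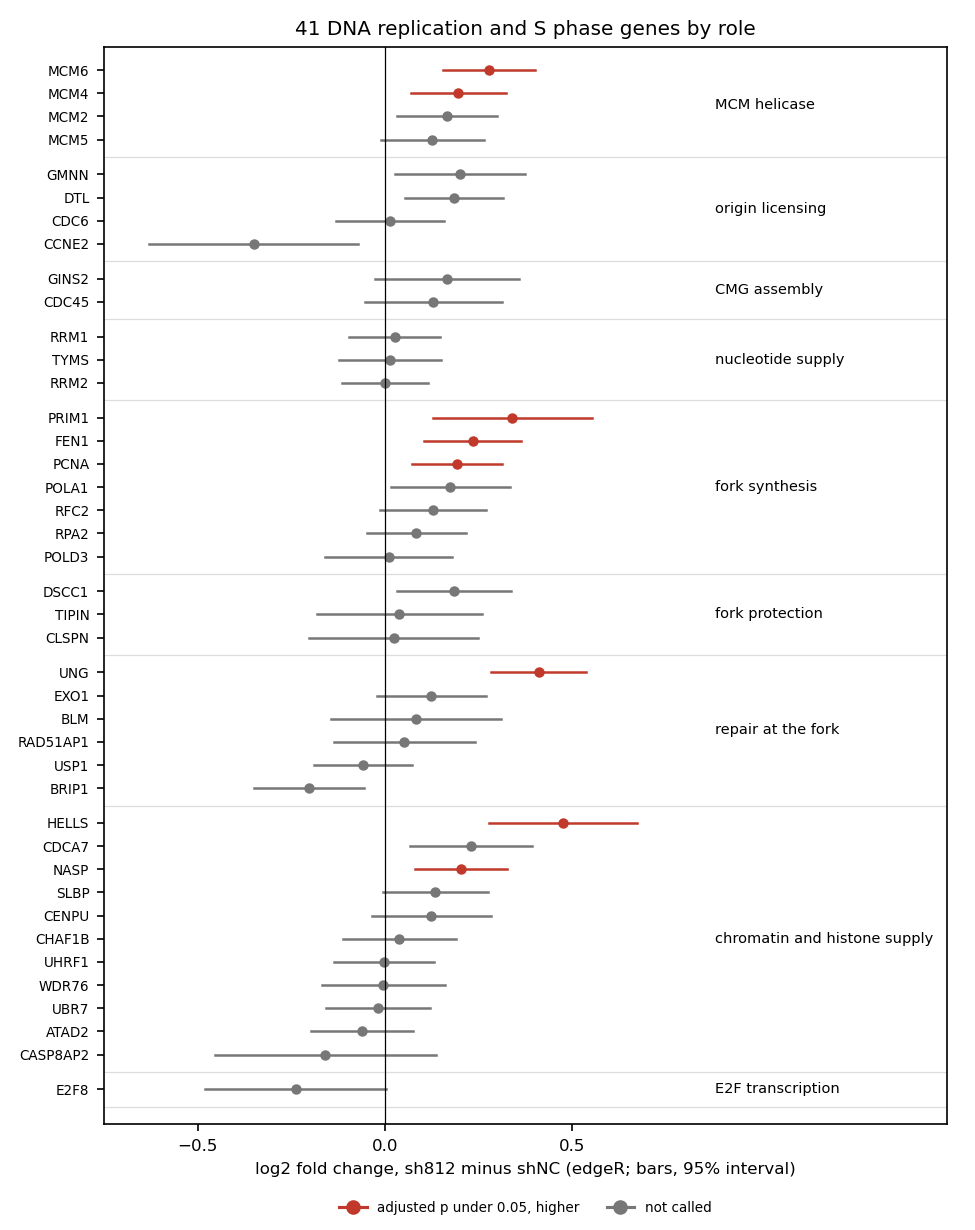
Fitted log2 fold change (x axis, sh812 minus shNC) of each of the 41 genes, grouped by role, with 95% intervals from edgeR as bars. The 8 genes called higher are red, and all 4 MCM genes lie to the right of 0 while the 3 nucleotide supply genes lie on it.

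Promoter sequence was not used to choose the list, and many of its promoters, but not all, hold a word of the E2F type. E2F factors bind words of the form TTTCCCGC, TTTCGCGC, TTTGCCGC or TTTGGCGC, which were searched on both strands in RefSeq promoter windows (GRCh38.p14, 250 bases before to 50 after each start site). Of the 41 genes, 32 had at least 1 window, and 19 of these 32 (59.38%) held such a word. Among all 27305 gene symbols with a window, 3.99% held one. The 19 were MCM2, MCM6, CDC6, GMNN, DTL, GINS2, TYMS, PCNA, POLA1, CLSPN, TIPIN, UNG, EXO1, UHRF1, HELLS, CDCA7, CASP8AP2, CENPU and UBR7. The shorter word CCAAT, read by the NF-Y factor, was in 29 of the 43 windows of all 32 genes and in 34.61% of all windows. Of the genes called higher, 4 of the 7 with a window held an E2F word, as did 15 of the 25 genes not called. A match is a description of letters and was not tested as a binding site.

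The 250 bases before the start site are shown for MCM6, HELLS, UNG and PCNA, the 4 genes called higher that hold an E2F word, and for TYMS and DTL, which hold one and were not called. They were chosen after their values were seen. Each runs 5′ to 3′ along the strand of the gene, and capitals mark the E2F words on either strand.
MCM6 promoter, chr2:135876444-135876693, minus strand: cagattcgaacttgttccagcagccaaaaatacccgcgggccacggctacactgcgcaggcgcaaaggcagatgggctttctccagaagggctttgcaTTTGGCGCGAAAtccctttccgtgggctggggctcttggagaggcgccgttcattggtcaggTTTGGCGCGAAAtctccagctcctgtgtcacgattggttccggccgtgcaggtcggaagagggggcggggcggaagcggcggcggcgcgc
HELLS promoter, chr10:94545538-94545787, plus strand: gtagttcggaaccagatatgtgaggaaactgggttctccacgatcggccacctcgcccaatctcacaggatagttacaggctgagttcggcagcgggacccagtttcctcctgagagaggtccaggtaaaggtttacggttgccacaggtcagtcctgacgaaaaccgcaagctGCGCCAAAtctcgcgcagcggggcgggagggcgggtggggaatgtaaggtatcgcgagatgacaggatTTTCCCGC
UNG promoter, chr12:109097922-109098171, plus strand: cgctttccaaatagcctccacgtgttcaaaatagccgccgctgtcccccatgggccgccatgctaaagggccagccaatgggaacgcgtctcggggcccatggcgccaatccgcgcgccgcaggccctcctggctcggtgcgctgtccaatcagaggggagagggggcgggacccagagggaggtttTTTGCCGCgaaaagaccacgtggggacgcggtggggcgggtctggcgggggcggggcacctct
PCNA promoter, chr20:5126623-5126872, minus strand: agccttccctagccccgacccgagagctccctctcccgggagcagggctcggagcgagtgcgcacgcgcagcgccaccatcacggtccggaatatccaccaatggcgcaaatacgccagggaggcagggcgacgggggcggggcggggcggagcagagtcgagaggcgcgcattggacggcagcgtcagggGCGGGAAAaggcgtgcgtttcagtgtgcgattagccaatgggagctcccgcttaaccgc
TYMS promoter, chr18:657403-657652, plus strand: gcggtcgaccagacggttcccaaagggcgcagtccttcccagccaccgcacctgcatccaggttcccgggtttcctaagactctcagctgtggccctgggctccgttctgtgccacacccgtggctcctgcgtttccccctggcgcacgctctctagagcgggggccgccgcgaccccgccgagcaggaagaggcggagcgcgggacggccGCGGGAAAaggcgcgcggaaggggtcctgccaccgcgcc
DTL promoter, chr1:212035498-212035747, plus strand: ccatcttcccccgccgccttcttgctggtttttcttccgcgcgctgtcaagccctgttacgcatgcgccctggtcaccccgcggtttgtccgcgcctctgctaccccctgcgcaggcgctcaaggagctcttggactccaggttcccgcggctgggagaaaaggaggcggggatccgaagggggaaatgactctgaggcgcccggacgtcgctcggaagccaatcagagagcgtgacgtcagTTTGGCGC

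In MCM6, the words TTTGGCGC and TTTCGCGC overlap by 4 bases on opposite strands, and this pair occurs at 2 places, 152 and 90 bases before the start site (first base). The HELLS words begin 76 and 8 bases before the start, the UNG word 63, the PCNA word 59, the TYMS word 39 and the DTL word 8. PCNA and TYMS hold the same word, TTTCCCGC on the opposite strand, and their RNA gave an adjusted p of 0.035 and of 0.94 in edgeR. UNG and PCNA each have a second RefSeq window, which holds no such word. The count table does not separate transcripts by their start.

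The 4 MCM genes of the list encode subunits of the ring that unwinds DNA at the fork. MCM6 (ENSG00000076003, chromosome 2, 135839626 to 135876426 in GENCODE 29) read at 142 and 142 CPM in shNC and at 171 and 174 CPM in sh812. The sh812 libraries were both above the controls, and the fitted change was 0.28 on the log2 scale (SE 0.06, adjusted p = 0.00359 in edgeR). MCM4 (ENSG00000104738, chromosome 8, 47960185 to 47978160) read at 154 and 143 CPM in shNC and at 173 and 167 CPM in sh812, again without overlap, and rose by 0.20 on the log2 scale (SE 0.06, adjusted p = 0.0417 in edgeR). Of the 10 alternatives that keep the 4 libraries, 9 called MCM4 higher, all but library size alone. MCM4 also lost the call without shNC replicate 2 and without either sh812 library. Over the settings tried besides the main fit, with single libraries left out included, its log2 fold change ran from 0.15 to 0.25.

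MCM2 and MCM5 were also higher in each sh812 library than in each control but were not called. MCM2 read at 97.7 and 103 CPM in shNC and at 115 and 110 CPM in sh812 (log2 fold change 0.17, SE 0.07, adjusted p = 0.10 in edgeR). MCM5 read at 86.8 and 92.1 CPM, then 99.7 and 95.5 CPM (0.13, SE 0.07, adjusted p = 0.25 in edgeR). The median of the 4 was 0.18, and all 4 stood above 0 in the fit, where 49% of all genes tested did. MCM2 shares exon sequence with TPRA1, which is read from the other strand. Whether the counting used strand is not given in the sources used here.

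The other genes with an MCM name did not all share this direction. MCM10, which helps to activate the loaded helicase without being part of the ring, was lower in sh812. It read at 35.2 and 33.7 CPM in shNC and at 25.8 and 25.7 CPM in sh812, a change of -0.42 on the log2 scale (SE 0.09, adjusted p = 0.00337 in edgeR). MCM10 was called lower in all 10 alternatives that keep the 4 libraries, and also without any single library. Of MCM3, MCM7, MCM8 and MCM9, none was called, and MCM7 was nearest to the threshold (adjusted p = 0.079 in edgeR), at 241 and 250 CPM in shNC and 286 and 264 CPM in sh812. MCM7 is named here after its value was seen.

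Of the 4 genes that license origins or limit licensing, none was called. CDC6 loads the MCM ring together with CDT1, and it read at 77.4 and 78.1 CPM in shNC and at 82.4 and 74.5 CPM in sh812. The groups overlap, and the 95% interval of its log2 fold change ran from -0.13 to 0.16. GMNN, which encodes the CDT1 inhibitor geminin, read at 37.9 and 39.1 CPM in shNC and at 46.7 and 41.8 CPM in sh812 (log2 fold change 0.20, SE 0.08, adjusted p = 0.13 in edgeR). Its libraries do not overlap between groups.

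DTL encodes the substrate receptor that has CDT1 destroyed at replicating DNA. It read at 115 and 120 CPM in shNC and at 129 and 138 CPM in sh812 (log2 fold change 0.19, SE 0.06, adjusted p = 0.061 in edgeR). CCNE2 encodes cyclin E2, a partner of CDK2 at the entry to S phase, and was the lowest value of the list. It read at 18.1 and 15.5 CPM in shNC and at 15.2 and 11.2 CPM in sh812 (log2 fold change -0.35, SE 0.13, adjusted p = 0.096 in edgeR). The closest libraries of the groups, 15.5 and 15.2 CPM, nearly touch. CCNE2 shares exon sequence with INTS8 on the opposite strand, and its call depends on the setting. CCNE2 was called lower with the replicate block (-0.36, adjusted p = 0.044 in edgeR), without shNC replicate 2 (-0.45, adjusted p = 0.0067) and without sh812 replicate 1 (-0.59, adjusted p = 0.020). It was not called without shNC replicate 1 (-0.23, adjusted p = 0.34 in edgeR) or without sh812 replicate 2 (-0.15, adjusted p = 0.71).

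Among 11 other genes of licensing and its kinases, ORC1 to ORC6, CDT1, CCNE1, CDK2, DBF4 and CDC7, 0 were called in edgeR, with 1 higher and 1 lower at an unadjusted p under 0.05. The lower one was CCNE1, the gene of cyclin E1, at 11.9 and 11.3 CPM in shNC and 9.29 and 8.16 CPM in sh812 (log2 fold change -0.41, SE 0.14, adjusted p = 0.052 in edgeR). It is named here after its value was seen.

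CDC45 and GINS2, parts of the active helicase, were not called, with log2 fold changes of 0.13 (SE 0.09) and 0.17 (SE 0.09). CDC45 read at 33.1 and 33.8 CPM in shNC and at 38.7 and 34.5 CPM in sh812. GINS2, the slightly more abundant of the pair, read at 31.1 and 36.4 CPM in shNC and at 39.9 and 35.7 CPM in sh812, so its groups overlap. Of 9 further assembly factors, 0 were called in edgeR, with 1 higher and 1 lower at an unadjusted p under 0.05.

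None of the 3 nucleotide supply genes of the list was called, and their log2 fold changes ran from -0.00019 to 0.026. RRM2, the regulated subunit of ribonucleotide reductase, was the most abundant gene of the list in CPM, at 502 and 516 in shNC and 511 and 508 in sh812. The 95% interval of its log2 fold change ran from -0.11 to 0.11. RRM1, the large subunit of the same enzyme, read at 167.8 and 171.9 CPM, then 173.2 and 172.5 CPM, with an interval from -0.097 to 0.15. Both sh812 libraries of RRM1 lay above both controls by a small margin, as they did in 26.2% of all genes tested. TYMS, thymidylate synthase, read at 97.1 and 98.1 CPM in shNC and at 102 and 95.1 CPM in sh812, with an interval from -0.12 to 0.15. These intervals reach log2 changes of 0.15 and do not show that the levels were equal.

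Of 27 other genes of nucleotide synthesis, 7 rose, 2 fell and 18 were not called at an adjusted p under 0.05 in edgeR, where 5.43% of all genes were called higher and 5.42% lower. Their median log2 fold change was 0.10, and their difference from the 3 genes above was not tested. IMPDH2, the rate-limiting step to guanine nucleotides, read at 365 and 390 CPM in shNC and at 460 and 456 CPM in sh812 (log2 fold change 0.28, SE 0.06, adjusted p = 0.00252 in edgeR). GART, which carries out several steps of purine synthesis, read at 265 and 264 CPM, then 328 and 300 CPM (0.25, SE 0.06, adjusted p = 0.00865 in edgeR). DUT, which clears dUTP so that uracil stays out of DNA, read at 83.5 and 92.3 CPM, then 111 and 102 CPM (0.28, SE 0.07, adjusted p = 0.0109 in edgeR).

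The groups do not overlap in any of these 3 genes. The other 4 that rose were the purine enzymes ATIC and PFAS and the nucleotide kinases DTYMK and NME1, with log2 fold changes from 0.24 to 0.26, named after their values were seen. The 2 that fell handle pyrimidines. CTPS1, CTP synthase, read at 124 and 125 CPM in shNC and at 106 and 99.6 CPM in sh812 (log2 fold change -0.28, SE 0.06, adjusted p = 0.00644 in edgeR). CMPK1, a UMP and CMP kinase, read at 285 and 288 CPM, then 248 and 251 CPM (-0.20, SE 0.06, adjusted p = 0.0255 in edgeR). DTYMK and NME1 were not called once the length trend described below was removed. GART shares exon sequence with SON on the opposite strand.

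**Figure D2:**
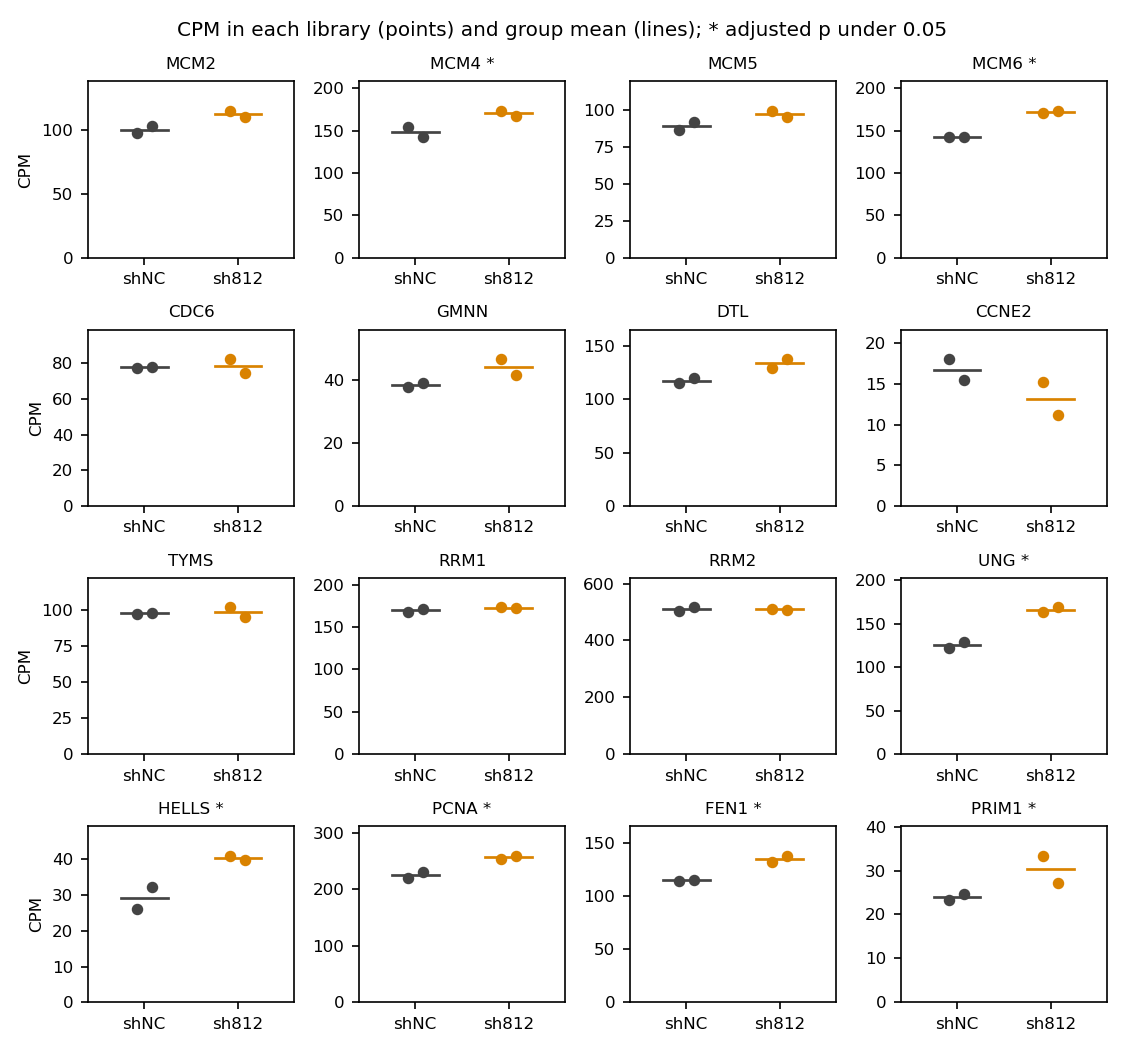
CPM in each library (y axes from 0, in CPM) for the MCM, licensing and nucleotide supply genes and 5 other members, with points for libraries, lines for the mean of 2 and a star for an adjusted p under 0.05. The sh812 points of MCM6 and UNG stand clear of the shNC points, those of RRM2 and TYMS do not, and those of CCNE2 are lower.

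All 7 genes of synthesis at the fork were fitted above 0, and 3 rose. Over all genes tested, 49% were fitted above 0 and 5.43% were called higher. PCNA, the sliding clamp, read at 220 and 231 CPM in shNC and at 255 and 260 CPM in sh812 (log2 fold change 0.19, SE 0.06, adjusted p = 0.035 in edgeR). FEN1, the nuclease that trims Okazaki fragments, read at 114 and 115 CPM, then 132 and 138 CPM (0.23, SE 0.06, adjusted p = 0.0161 in edgeR). PRIM1, the catalytic subunit of primase, read at 23.3 and 24.6 CPM, then 33.4 and 27.2 CPM (0.34, SE 0.10, adjusted p = 0.0339 in edgeR). The 2 sh812 libraries of PRIM1 differ more from each other than the controls do, and its log2 fold change was 0.18 without sh812 replicate 1 (adjusted p = 0.58 in edgeR).

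POLA1, RFC2, RPA2 and POLD3, which encode polymerase alpha, a clamp loader subunit, a single-strand binding subunit and a polymerase delta subunit, had log2 fold changes of 0.17, 0.13, 0.084 and 0.0094 and were not called. FEN1 shares exon sequence with FADS2 on its own strand and PRIM1 with NACA, a gene of 8995 to 11014 counts. At an unadjusted p under 0.05 in edgeR, 0 of 20 other fork synthesis genes were lower. After adjustment, 0 fell and 3 rose (15%, against 5.43% of all genes tested). They were POLE3, a histone-fold subunit of polymerase epsilon (log2 fold change 0.36, SE 0.07, adjusted p = 0.000797 in edgeR), RPA3 (0.37, SE 0.08, adjusted p = 0.0046 in edgeR) and RFC5 (0.26, SE 0.08, adjusted p = 0.0323 in edgeR). POLE3 read at 105 and 115 CPM in shNC and at 146 and 137 CPM in sh812. RFC5 was not called with the length trend removed (0.21, adjusted p = 0.078 in edgeR), with library size alone or without either sh812 library.

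The 3 genes that steady or mark the fork were not called. DSCC1, a clamp loader subunit for sister cohesion and the most abundant of them, read at 55.8 and 53.7 CPM in shNC and at 63.8 and 60.6 CPM in sh812 (log2 fold change 0.18, SE 0.07, adjusted p = 0.11 in edgeR). CLSPN, the checkpoint mediator claspin, read at 39.5 and 28.4 CPM in shNC, so that its control libraries enclose both sh812 values of 33.7 and 35.5 CPM. TIPIN had a log2 fold change of 0.038 (SE 0.11). Among 15 other fork and checkpoint genes, 0 were lower at an unadjusted p under 0.05 in edgeR. After adjustment, 0 fell and 2 rose (13.3%, against 5.43% of all genes tested). They were CDC25A, the phosphatase that frees CDK2 (0.30, SE 0.07, adjusted p = 0.00882 in edgeR), and CHEK1, the checkpoint kinase that restrains it (0.25, SE 0.07, adjusted p = 0.0181 in edgeR). CHEK1 shares exon sequence with STT3A on its own strand, a gene of 9169 to 11390 counts. CHEK1 was not called with library size alone or without either sh812 library, and CDC25A was not called without sh812 replicate 1.

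UNG, the glycosylase that removes uracil from new DNA, had the smallest p-value of the list. UNG (ENSG00000076248, chromosome 12, 109097574 to 109110992) read at 122 and 128 CPM in shNC and at 164 and 169 CPM in sh812. The gap between the groups was several times the spread within each, and the fitted change was 0.41 on the log2 scale (SE 0.06, adjusted p = 8.37e-05 in edgeR). BRIP1, the FANCJ helicase, went the other way at 75.2 and 70.4 CPM, then 64 and 62.6 CPM, without passing the test (-0.20, SE 0.07, adjusted p = 0.067 in edgeR). The nuclease EXO1, the helicase BLM, the recombination accessory factor RAD51AP1 and the deubiquitinase USP1 had log2 fold changes of 0.12, 0.084, 0.052 and -0.059 and were not called.

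Of the 11 genes of chromatin and histone supply, 2 rose (18.2%, against 5.43% of all genes tested) and 0 fell in edgeR. At an unadjusted p under 0.05, 0 were lower. HELLS encodes a chromatin remodeller needed for DNA methylation. HELLS (ENSG00000119969, chromosome 10, 94501434 to 94613905) read at 26.1 and 32.2 CPM in shNC and at 41 and 39.7 CPM in sh812. It was the largest change of the list, 38.9% or 0.47 on the log2 scale (SE 0.10, adjusted p = 0.0021 in edgeR), although the control libraries differ from each other by more than the sh812 libraries do. NASP, a chaperone of H3 and H4, read at 177 and 169 CPM, then 203 and 196 CPM (0.20, SE 0.06, adjusted p = 0.0291 in edgeR).

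CDCA7, which recruits HELLS to chromatin, read at 44.7 and 43.3 CPM in shNC and at 53.7 and 49.5 CPM in sh812 without passing (log2 fold change 0.23, SE 0.08, adjusted p = 0.064 in edgeR). ATAD2, the most abundant gene of this role, read at 267 and 229 CPM in shNC and at 242 and 233 CPM in sh812, where the groups overlap. The histone mRNA binder SLBP and the centromere gene CENPU had log2 fold changes of 0.13 and 0.12. CHAF1B of the CAF-1 assembly factor, UHRF1, which reads methylated DNA, WDR76, UBR7 and CASP8AP2 ran from -0.16 to 0.038, and none was called. Of 6 other histone chaperone and maintenance genes, 2 rose (33.3%, against 5.43% of all genes tested) and 0 fell in edgeR. At an unadjusted p under 0.05, 0 were lower. SSRP1, of the FACT complex, read at 442 and 461 CPM, then 574 and 533 CPM (0.29, SE 0.06, adjusted p = 0.00177 in edgeR), and CHAF1A gave 0.25 (SE 0.08, adjusted p = 0.0388 in edgeR). CHAF1A was not called with library size alone or in DESeq2.

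E2F8, a repressor within the E2F family, read at 16.5 and 17 CPM in shNC and at 13.2 and 15.2 CPM in sh812 (log2 fold change -0.24, SE 0.12, adjusted p = 0.21 in edgeR). Both sh812 libraries were below both controls. At an unadjusted p under 0.05 in edgeR, 1 of 16 other E2F, pocket protein and DREAM complex genes was higher. After adjustment, 0 rose and 1 fell, where 5.42% of all genes tested were called lower. The gene that fell was RBL2, which encodes the pocket protein p130 that holds E2F targets silent in resting cells. RBL2 read at 32 and 26.8 CPM in shNC and at 20.3 and 23 CPM in sh812 (-0.44, SE 0.11, adjusted p = 0.00747 in edgeR). It shares exon sequence with AKTIP on the opposite strand. RBL2 was called lower in all 10 alternatives that keep the 4 libraries. It lost the call without shNC replicate 1 and without sh812 replicate 1. Over the other settings tried, with single libraries left out included, the log2 fold change of RBL2 ran from -0.56 to -0.31.

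**Figure D3:**
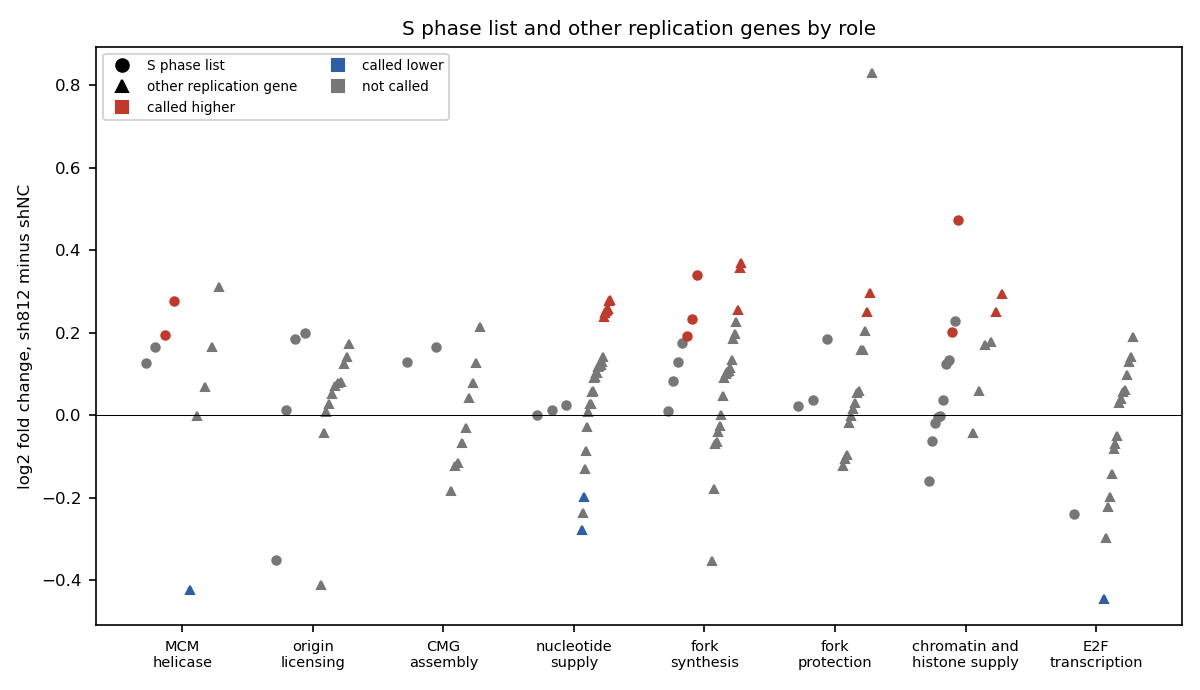
Log2 fold change (y axis, sh812 minus shNC) of the 41 genes (circles) and of 109 other replication genes (triangles) in each role they share, with calls at an adjusted p under 0.05 in colour. The 4 triangles called lower are MCM10, CTPS1, CMPK1 and RBL2, and the highest triangle, at 0.83, is CHTF8, which has under 1 CPM and was not called.

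Across the 109 other replication genes, 14 rose and 4 fell at an adjusted p under 0.05 in edgeR, with a median log2 fold change of 0.06. This is 12.8% called higher, against 5.43% of all genes tested, and the list was chosen with earlier results of these data known. All 109 passed the low-count filter, and RNASEH2A and CHTF8 did so at under 1 CPM. With 1 library left out, between 2 and 28 were called higher and between 2 and 7 lower, the fewest higher without sh812 replicate 1 and the most without shNC replicate 2, where 1.46% and 9.5% of all genes were called higher.

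Levels of the 41 genes differ widely between genes. Per kilobase of the longest transcript, PCNA was the highest in shNC at 166 CPM per kb, followed by RRM2 at 139 CPM per kb. CASP8AP2 was the lowest at 2.66 CPM per kb, with BLM at 3.59 and E2F8 at 4.76 CPM per kb. The genes called higher ranged from HELLS at 5.84 CPM per kb to PCNA.

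The difference between groups followed transcript length over all genes, and so did the difference between the control libraries. In the 12219 genes whose mean log2 CPM exceeded 1, Spearman's rho between length and the log2 difference ran from -0.38 to -0.18 over the 4 pairs of a sh812 and a shNC library. It was -0.33 between the shNC libraries and 0.043 between the sh812 libraries, and all 6 values are descriptions of libraries that share depth and genes. Among the 41 genes it was -0.34 for the fitted change and -0.39 between the shNC libraries. The median longest transcript of the 41 was 3622 bases, against 3218 bases over all genes tested. With the 12219 genes split into 10 bins by length, bins 5 and 6 had medians of 3417 and 4008 bases.

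With each library's length trend removed, the number of the 41 genes called higher stayed at 8, but 6 of them were the same genes. Of all genes tested, 4.73% were called higher with this trend removed, against 5.43% in the main fit. PCNA and PRIM1, whose longest transcripts have 1359 and 1459 bases, dropped to 0.08 and 0.23 on the log2 scale (edgeR adjusted p = 0.37 and 0.15). DTL and POLA1, with 4573 and 5486 bases, gave 0.23 and 0.24 and were called (adjusted p = 0.017 and 0.041 in edgeR). UNG, HELLS, MCM6, FEN1, NASP and MCM4 stayed called. The median of the 41 genes was 0.064 with this trend removed, and 0.071 with the length and GC trends removed. What the trend comes from was not tested.

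**Figure D4:**
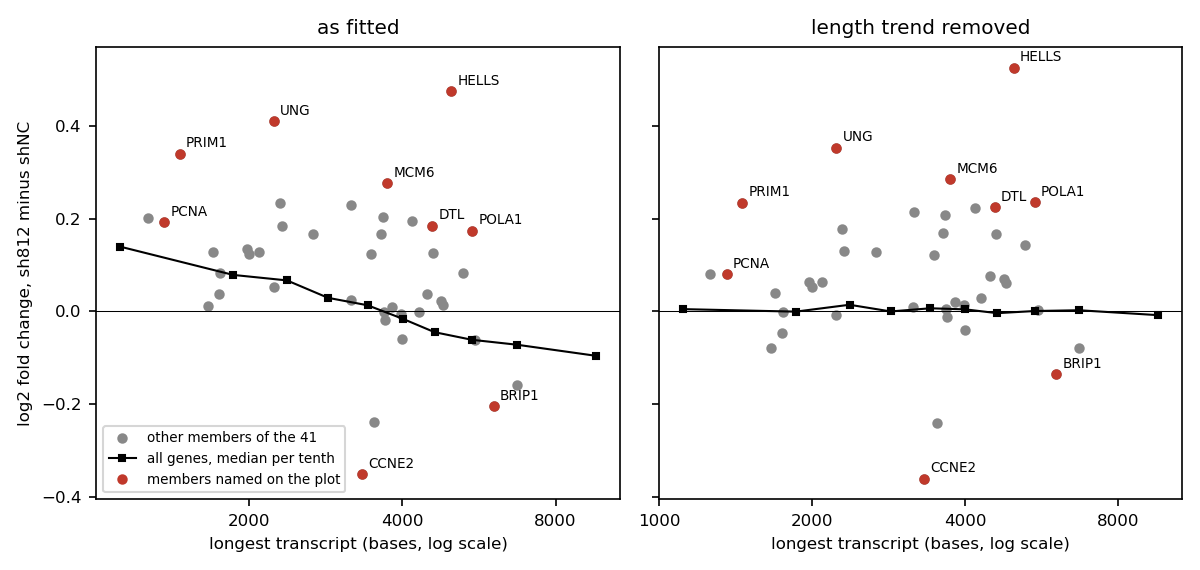
Log2 fold change (y axis, sh812 minus shNC) against the longest transcript (x axis, log scale) as fitted (left) and with the length trend removed (right), with circles for the 41 genes and squares for medians of all genes in 10 bins by length. The medians of all genes fall from 0.14 in the shortest bin to -0.096 in the longest on the left and lie near 0 on the right, where PCNA sits at 0.08.

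UNG and HELLS were the 2 genes of the list called higher in every setting tried, 10 alternatives with the 4 libraries and 4 with 1 library left out. MCM6 and FEN1 were called in all 10 with the 4 libraries and lost the call without either sh812 library. Scaled to library size alone, 4 of the 41 genes were called higher, UNG, HELLS, MCM6 and FEN1, and 1 was called lower, BRIP1. In that setting, 3.34% of all genes tested were called higher and 11.2% in either direction. Without sh812 replicate 1, 2 of the 41 were called higher and 1 lower, and without sh812 replicate 2, 3 were called higher, while the share of all genes called higher fell to 1.46% and 1.55%. Without shNC replicate 2, the list had a median change of 0.11 on the log2 scale, against 0.12 with all 4 libraries.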

How the data were processed

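Per the submitters' processing notes, fastp, STAR 2.7.1a, featureCounts and DESeq2 were used with hg38; their settings, the annotation and the strand setting are not given in the sources used here. The authors deposited raw counts per gene, whole numbers with a different total in each library (31450648 to 37041330). The 2 shNC and 2 sh812 libraries were compared with edgeR 4.0.16 in R 4.3.3 (filterByExpr, TMM, glmQLFit and glmQLFTest, no covariate). Benjamini-Hochberg adjustment ran over all 16802 genes tested, with calls made where the adjusted p was under 0.05. Intervals and standard errors (SE) come from the quasi-likelihood F statistic. CPM was computed here on TMM-scaled library sizes. Libraries of a group differed beyond counting noise (chi-square per gene 8.43 for shNC, 4.51 for sh812), so each was kept.

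The 41 genes, their roles and the other lists were chosen with earlier results of these data known. Values per library are given for called genes, for MCM, licensing and nucleotide supply genes and for the most abundant gene of each other role. At most 3 called genes per role and direction are named from the 109 others, by smallest p, and exceptions are marked. Transcript lengths, GC content and positions are those of GENCODE 29 (GRCh38), matched by identifier. Alternatives were RLE, upper quartile and library size scaling, no filter, a mean CPM of at least 1, DESeq2 1.42.0, limma-voom (limma 3.58.1), a replicate block, each library left out, and removal of length and GC trends by lowess (span 0.3). On simulated counts with 16403 genes tested, edgeR called 40% of genes changed by log2 0.3, 80% by 0.5 and 100% by 1, with 4 false calls. The changed genes were drawn from the more abundant ones, and the simulated counts held no length trend. These rates therefore do not cover errors that such a trend would bring.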

Additional observations from a re-analysis of the deposited data

How the results depend on the processing

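The median of all genes tested moved from -0.0056 to -0.050 with library size alone. There, 4 of the 41 genes were called higher and 1 lower (against 8 and 0), 8 of the other replication genes were called higher (against 14), the MCM median was 0.14 (against 0.18) and the nucleotide supply median changed sign to -0.032 (against 0.013). Of all genes tested, 3.34% were called higher there (against 5.43%) and 11.2% in either direction (against 10.8%). One gene of the 41, and so 1 lower call, was added with a mean CPM of at least 1 (BRIP1) and 1 with the replicate block (CCNE2). Of all genes tested, 15% and 11.9% were called in either direction in these settings. The median of the 41 genes was 0.064 with the length trend removed and 0.071 with the length and GC trends removed. For each of these, the cause was not tested. METTL3 ran from -2.52 to -2.33 and stayed called throughout.

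Leaving out a library leaves a lone library that is assumed to vary like the pair. The count of all called genes then ran from 587 to 3252 (against 1822), that of the 41 genes called higher from 2 to 10 and lower from 0 to 4, and that of other replication genes called higher from 2 to 28 and lower from 2 to 7. The medians ran from 0.064 to 0.12 (41 genes), from 0.0298 to 0.12 (licensing), from 0.15 to 0.21 (MCM) and from -0.0033 to 0.027 (nucleotide supply).

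Same-numbered libraries had a correlation of deviations of 0.0152 across genes, so the numbers show no pairing. The fit with the replicate block called 2001 genes, 8 of the 41 genes higher and 1 lower. Of all genes tested, 11.9% were called in that fit, 5.97% of them all as higher. With 2 libraries a group, the simulation called 40% of genes changed by log2 0.3, so changes of this size can be missed.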
